A study of Homo sapiens with 16 samples.

Results

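A set of 10 genes of the NF-kB pathway were followed through 16 RNA-seq libraries: the subunits NFKB1, NFKB2, RELA and RELB, the inhibitors NFKBIA and TNFAIP3, and the inflammatory targets TNFAIP2, CXCL8, CXCL1 and LIF. They were found by matching the NCBI gene number of each row to its symbol, which gave 10 of the 27434 gene rows, 1 row for each gene. The libraries come from the human osteosarcoma line U2OS and the human colorectal carcinoma line HCT116, in 8 groups of 2. The study asked whether the RNA-binding protein SAM68 (gene KHDRBS1) is needed for the long noncoding RNA NORAD to regulate Pumilio proteins.

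Of the 4 groups of U2OS, which had a wild-type background, the first received a control siRNA (a non-targeting pool) and the second an siRNA pool against SAM68. The third received a control plasmid, pcDNA3.1(+), and the fourth pcDNA3-HA-SAM68, which carries the mouse gene. HCT116 cells were wild type or SAM68 KO (knockout), and each genotype received the control siRNA or an siRNA pool against NORAD. The siRNAs were used at 50 nM and the plasmids at 100 ng per 20000 cells, all with a Lipofectamine reagent, and cells were harvested after 48 h. No library comes from untransfected cells, so every level below is that of a transfected culture, and no inflammatory stimulus is named in the labels. The labels do not say whether the knockout is 1 clone or whether replicates are separate cultures, and every p-value therefore rests on a spread between samples that may be technical only.

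NF-kB is a family of dimeric transcription factors. In resting cells the inhibitor encoded by NFKBIA holds the RELA and NFKB1 dimer in the cytoplasm, and signals from TNF, interleukin-1 or Toll-like receptors lead to destruction of the inhibitor and entry of the dimer into the nucleus. RELB with the NFKB2 product forms the dimer of the noncanonical branch. NFKBIA and TNFAIP3, which encodes the ubiquitin-editing protein A20, are themselves induced by NF-kB and damp the signal, and CXCL8 (interleukin-8) and CXCL1 encode chemokines that attract neutrophils.

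The DNA element that NF-kB binds, the kappaB site, can be seen in the promoters of several of these genes. A set of 4 RefSeq promoter windows is shown, for both feedback inhibitors and both chemokines. Each covers 250 bases before to 50 after the transcription start in assembly GRCh38.p14, a build other than the one used for the counts. Capitals mark matches to the 10-base kappaB consensus (GGG, then a purine, any pair of bases, a pair of pyrimidines and CC) or to GGAATTTCC on either strand and, in CXCL8, also the AP-1 motif TGACTCA.

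NFKBIA (chr14:35404700-35404999, minus strand): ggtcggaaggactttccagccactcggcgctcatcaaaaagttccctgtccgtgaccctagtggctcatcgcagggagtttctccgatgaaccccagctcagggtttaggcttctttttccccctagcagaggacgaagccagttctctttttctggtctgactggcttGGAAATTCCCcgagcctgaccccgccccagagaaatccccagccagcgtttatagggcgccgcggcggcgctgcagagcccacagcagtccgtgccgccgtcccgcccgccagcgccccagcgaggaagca
TNFAIP3 (chr6:137867009-137867308, plus strand): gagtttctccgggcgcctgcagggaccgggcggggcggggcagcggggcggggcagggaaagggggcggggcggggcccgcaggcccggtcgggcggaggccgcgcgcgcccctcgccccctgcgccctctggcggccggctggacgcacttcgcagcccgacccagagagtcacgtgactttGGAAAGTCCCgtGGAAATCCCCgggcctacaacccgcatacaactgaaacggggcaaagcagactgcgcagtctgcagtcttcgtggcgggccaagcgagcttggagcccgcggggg
CXCL8 (chr4:73740319-73740618, plus strand): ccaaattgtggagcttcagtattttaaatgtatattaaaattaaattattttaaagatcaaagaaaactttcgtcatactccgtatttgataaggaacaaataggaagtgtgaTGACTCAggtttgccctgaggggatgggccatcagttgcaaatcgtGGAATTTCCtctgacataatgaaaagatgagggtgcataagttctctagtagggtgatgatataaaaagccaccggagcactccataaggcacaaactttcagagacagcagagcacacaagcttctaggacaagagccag
CXCL1 (chr4:73869143-73869442, plus strand): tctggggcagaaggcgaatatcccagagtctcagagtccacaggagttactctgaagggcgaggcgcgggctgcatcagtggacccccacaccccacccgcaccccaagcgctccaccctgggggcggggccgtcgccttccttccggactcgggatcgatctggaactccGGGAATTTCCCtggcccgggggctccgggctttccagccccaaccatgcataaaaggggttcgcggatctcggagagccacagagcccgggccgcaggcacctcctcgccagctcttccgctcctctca

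The RefSeq table held windows for 8 of the 10 genes, 12 windows in all, and none for RELB and LIF. The kappaB consensus was found in 6 of the 12 windows (those of NFKBIA, TNFAIP3 and CXCL1, 1 of NFKB1 and 2 of NFKB2) and in 11.3% of all 35116 windows. The letters GGAATTTCC, chosen after the CXCL8 and CXCL1 windows had been read, were found on either strand in 4 of the 12 windows, 1 each of 4 genes, and in 0.461% of all windows. Their first base lies 91 bases before the start in CXCL8, 78 in CXCL1, 81 in NFKBIA and 48 in NFKB1, and in CXCL1, NFKB1 and NFKBIA they overlap the consensus match. TGACTCA, held by 4.95% of all windows, begins 137 bases before the start of CXCL8 and was in no other window of these genes. These are matches of letters, and no binding was measured.

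**Figure D1:**
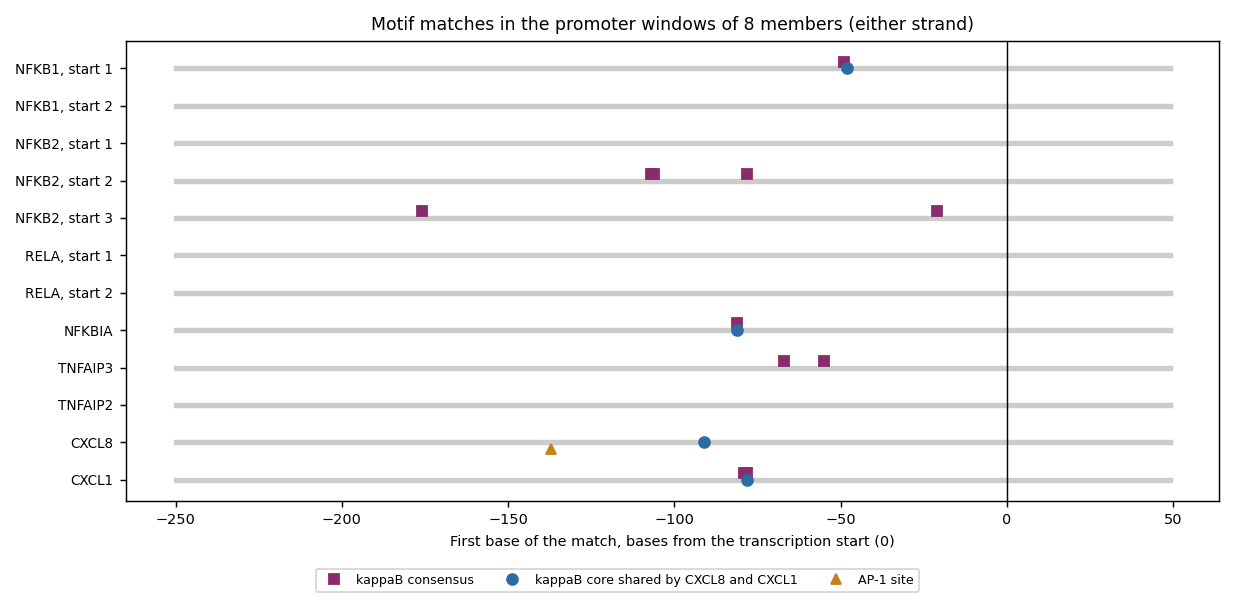
Position of the first base of each motif match, in bases from the transcription start, in the 12 promoter windows of 8 genes (grey lines; genes with several RefSeq starts have several lines). The GGAATTTCC matches (circles) of CXCL8, CXCL1, NFKBIA and NFKB1 lie 48 to 91 bases before the start.

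Total expected counts were 11349545 to 27387412 per library. A gene is said below to rise or fall, or to be called, at an edgeR p below 0.05 after Benjamini-Hochberg adjustment over all tested genes. KHDRBS1 fell in the knockout (log2 fold change -2.57 ± 0.107 SE, edgeR adjusted p = 8.96e-06). With SAM68 siRNA it differed by -1.94 ± 0.25, in the direction of the label but not past the edgeR test (adjusted p = 0.185; 1.26e-09 in DESeq2). With the SAM68 plasmid it differed by 1.18 ± 0.244 (edgeR adjusted p = 1; 0.0162 in DESeq2). That plasmid carries the mouse gene, so the value counts only those of its reads that were assigned to the human gene. The log2 change of NORAD with its siRNA was -2.3 in wild-type and -1.85 in knockout HCT116 (adjusted p = 0.00099 and 0.00609). Of 10 colon epithelial markers, 6 reached at least 1 CPM (reads of a gene at equal library size after TMM scaling) in every HCT116 library and 5 in every U2OS library, while VIL1, CDX1 and LGR5 were at 0 in all 8 HCT116 libraries. Their sum was 3658 to 5094 CPM in HCT116 and 640 to 1259 CPM in U2OS. Of 10 mesenchymal and bone markers, 8 did so in every U2OS library, with TWIST1 at 0, and 4 in every HCT116 library, with sums of 5677 to 9621 and of 27.2 to 40.3 CPM. Leukocyte markers, of which CD3E was at 0 in all 16 libraries, summed to 8.97 to 25.3 CPM.

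Levels of different genes were compared in TPM, which divides by transcript length, as deposited, and only within a cell line. In U2OS, RELA was the highest of the 10 at 78.6 TPM (mean of the 4 group means), followed by NFKBIA at 46.6, NFKB2 at 45, NFKB1 at 26, LIF at 16.8, RELB at 12.7, TNFAIP2 at 7.47, TNFAIP3 at 5.46 and CXCL8 at 3.83. NFKBIA and NFKB2 had overlapping ranges over the 8 U2OS libraries, from 38.9 to 54.1 TPM and from 36.1 to 56.1 TPM. From NFKB1 down to CXCL8, the range of each gene overlapped that of the next. In HCT116 the cytokine gene LIF stood first at 47.5 TPM, with RELA at 45.2 and NFKB2 at 43.9. These 3 overlapped in range. NFKBIA at 30.2, TNFAIP2 at 28 and NFKB1 at 25.4 also overlapped, followed by CXCL8 at 10.3, RELB at 7.71 and TNFAIP3 at 2.09. NFKBIA and TNFAIP2, with up to 36.79 and 33.99 TPM, reached into the ranges of RELA (from 32.48) and NFKB2 (from 33.83). CXCL8 ranged from 2.8 to 34.7 TPM and overlapped RELB and each gene above it but LIF. Without the library at 34.7, replicate 2 of the knockout with control siRNA, CXCL8 was at 7.12 TPM, below RELB at 7.44. The subunit gene RELB was thus the least abundant of the 4 subunits in both lines.

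**Figure D2:**
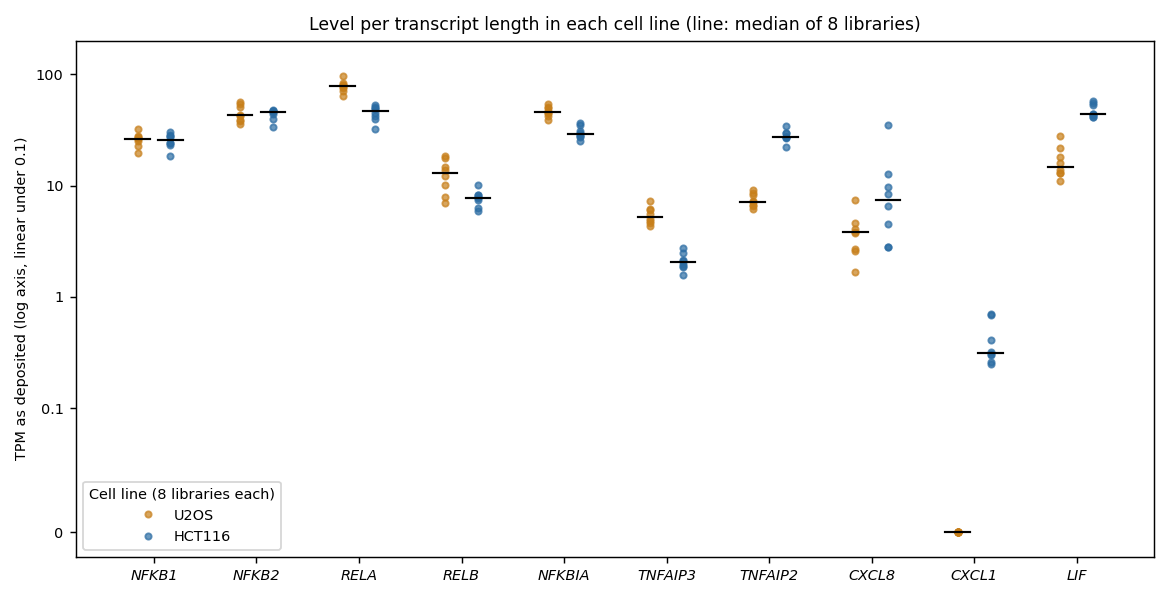
TPM of each gene in the 8 U2OS and 8 HCT116 libraries on a log axis that is linear under 0.1 (points, libraries; lines, median of 8). RELA is the highest in U2OS, LIF, RELA and NFKB2 overlap at the top in HCT116, and CXCL1 is at 0 in U2OS.

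CXCL1 was close to silent in both lines. No read was assigned to it in any of the 8 U2OS libraries, which allows up to 3 counts per library, for counting error only. The HCT116 libraries held 4 and 3 counts in wild type with control siRNA, 5 and 3 with NORAD siRNA, 7 and 8 in the knockout with control siRNA, and 5 and 4 in the knockout with NORAD siRNA. CXCL1 did not pass the filter on low counts, so it has no test in the main fits. There, 9 of the 10 genes were tested in each comparison. With no filter CXCL1 entered the HCT116 fits and the comparison of the lines. Between the lines 7 of the 10 genes were then called, CXCL1 among them. That call rests on 4 and 3 counts in wild-type HCT116 with control siRNA beside 0 in U2OS. Of the genes that encode inducers of the pathway, IL1B was at 0 in all 4 control groups, and TNF had its highest control group mean, 0.0809 CPM, with the U2OS control plasmid. IL1A was at 0.365 ± 0.11 CPM (SD, n = 2) in U2OS with control siRNA, at 1.29 ± 0.089 CPM with control plasmid and at 0.215 ± 0.0368 CPM in wild-type HCT116 with control siRNA.

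**Figure D3:**
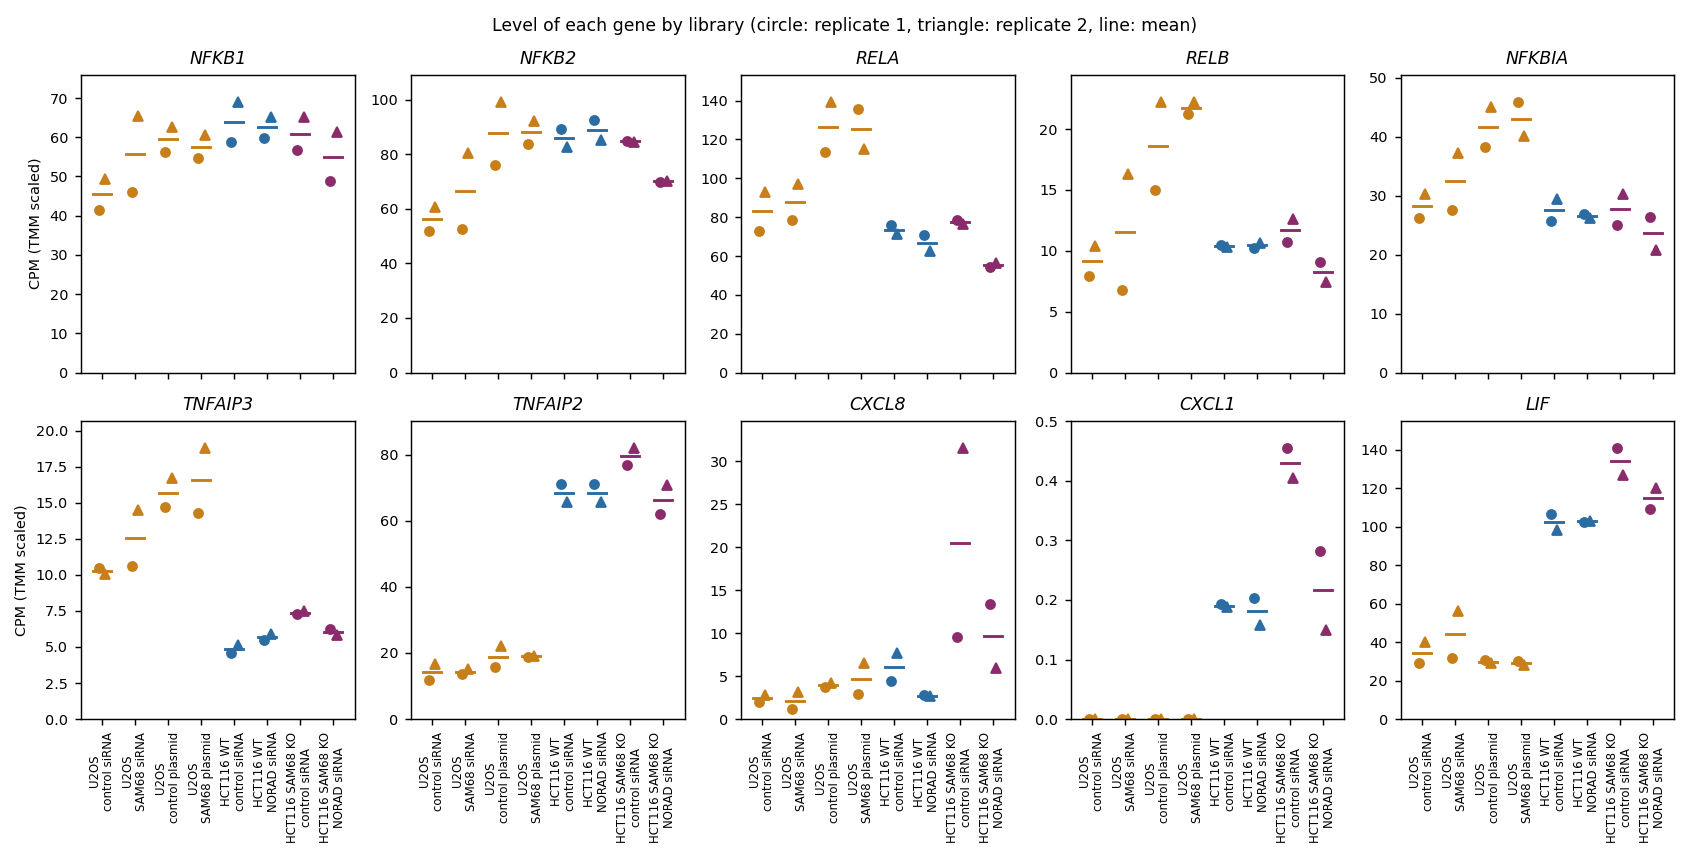
Level of each gene in CPM in each of the 16 libraries, with 1 panel per gene, the y axis from 0, and lines at the mean of 2 libraries. U2OS libraries with plasmid sit above those with control siRNA for the 4 subunits, CXCL8 has 1 knockout library far above the rest, and LIF and TNFAIP2 are higher in HCT116.

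Knockout of SAM68 in HCT116 was compared with wild type over both siRNAs, 4 libraries against 4. CXCL8 and LIF rose, and none of the other 7 tested genes passed an adjusted p of 0.05. Of all 13764 tested genes, 17.6% were called (11% higher and 6.62% lower), so 2 of 9 genes is near that background. In direction, 4 of the 9 were higher and 5 lower, with a median log2 difference of -0.07 beside -0.01 over all tested genes. The calls over all genes depended on the siRNA: 43 within the control siRNA libraries alone and 2495 within the NORAD siRNA libraries alone.

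CXCL8 was at 4.48 and 7.68 CPM in wild-type libraries with control siRNA and at 2.81 and 2.65 CPM with NORAD siRNA. In the knockout it was at 9.55 and 31.5 CPM with control siRNA and at 13.4 and 5.91 CPM with NORAD siRNA. The lowest knockout library lay below the highest wild-type library, so the groups overlapped, and the second knockout library with control siRNA stood far above all others. In RNA from a whole culture, fewer cells expressing a gene and less of its RNA per cell cannot be told apart. The log2 difference was 1.8 ± 0.396 (SE; edgeR quasi-likelihood test, adjusted p = 0.0199). Without the second knockout library with control siRNA it was 1.25 with an adjusted p of 0.056, and the call was also lost without replicate 1 of the knockout with NORAD siRNA (0.0878) or without replicate 1 or 2 of wild type with NORAD siRNA (0.0903 and 0.0581). Within the control siRNA libraries alone the difference was 1.8 (adjusted p = 0.308) and within the NORAD siRNA libraries alone 1.81 (adjusted p = 0.0572).

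LIF, a cytokine of the interleukin-6 family, was at 106.4 and 98.0 CPM in wild type with control siRNA and at 102.6 and 103.0 CPM with NORAD siRNA. In the knockout it was at 140.8 and 127.0 CPM with control siRNA and at 109.4 and 120.1 CPM with NORAD siRNA. All 4 knockout libraries were above all 4 wild-type libraries, as was the case, in either direction, for 18.9% of tested genes. The log2 difference was small, 0.29 ± 0.0739 (SE; edgeR adjusted p = 0.0299). LIF was not called within the control siRNA libraries alone, nor within the NORAD siRNA libraries alone. Leaving out any 1 of the 8 libraries ended the call, with log2 differences of 0.23 to 0.32 and adjusted p from 0.0571 to 0.139.

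Among the inhibitors, TNFAIP3 was higher in the knockout by 0.36 ± 0.12 without passing the test (edgeR adjusted p = 0.0665). Its 4 wild-type libraries were at 4.57, 5.16, 5.47 and 5.93 CPM and its 4 knockout libraries at 7.28, 7.48, 6.22 and 5.83 CPM, with 1 knockout library inside the wild-type range. NFKBIA differed by -0.07 ± 0.108. The subunits NFKB1, NFKB2, RELA and RELB differed by -0.17 to -0.07 on the log2 scale, with the lowest edgeR adjusted p, 0.116, for NFKB2 (-0.17 ± 0.07). Within the NORAD siRNA libraries alone NFKB2 was lower in the knockout by 0.325 and passed (adjusted p = 0.0487), within the control siRNA libraries alone the difference was -0.013 (adjusted p = 0.981), and with an offset for GC content and length it was 0.0401 (adjusted p = 0.654).

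The difference between knockout and wild type followed base composition across the transcriptome. Over 13217 genes its log2 value had a rank correlation of -0.64 with the GC content of the transcript, so GC-rich transcripts tended to be lower in the knockout libraries. The 2 libraries of a group also differed with GC content. For replicate 2 over replicate 1 the rank correlation was -0.54 in wild type with control siRNA and -0.453 with NORAD siRNA. In the knockout it was -0.584 with control siRNA and -0.00448 with NORAD siRNA. CXCL8 is AT-rich, with 33.4% GC (percentile 0.128 of tested genes), while RELB is at 65.4% (percentile 96.8), NFKB2 at 61.4%, TNFAIP2 at 60.7%, RELA at 59.7% and LIF at 58.8%. With an offset for GC content and length, CXCL8 was higher by 1.35 (edgeR adjusted p = 0.014), LIF by 0.45 (6.44e-05) and TNFAIP2 by 0.3 (0.00576), and the median of the 9 genes was 0.22.

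Further genes of the pathway were read from 4 lists. Of 27 signalling core genes tested, 4 rose and 3 fell in the knockout, beside 17.6% of all tested genes called, as in each list below. Those that rose were CHUK, a kinase subunit of the IKK complex (0.34 ± 0.0843, edgeR adjusted p = 0.0276), the deubiquitinase gene CYLD (0.39), TAB3 (0.42) and BIRC2 (0.4). Those that fell were the adaptor TRAF2 (-0.45 ± 0.099, adjusted p = 0.02), RNF31, the catalytic subunit of the linear ubiquitin ligase (-0.36 ± 0.0827, adjusted p = 0.022), and NFKBIE, which encodes another inhibitor (-0.42). The core list had 9 members higher and 18 lower, with a median of -0.15 beside -0.01 over all tested genes. With the GC and length offset TRAF2 and RNF31 kept an adjusted p below 0.05 (0.0368 and 0.0488), and CHUK was at 0.06 (adjusted p = 0.36), CYLD at 0.21 (0.0587), TAB3 at 0.17 (0.102), BIRC2 at 0.13 (0.174) and NFKBIE at -0.22 (0.0655).

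Among 11 tested inducing ligands and receptors, TLR3, a receptor for double-stranded RNA, rose (1.06 ± 0.199, edgeR adjusted p = 0.0128) and CD40 fell (-0.46 ± 0.107, adjusted p = 0.0238), 2 of 11 and near the share called over all genes. TLR3 was low, at means of 1.36 and 1.79 CPM in wild type with control and NORAD siRNA and 3.08 and 3.29 CPM in the knockout. It has no value under the GC and length offset, where CD40 was at -0.43 (edgeR adjusted p = 0.00642). Of the receptors for the cytokines followed here, CXCR1 and CXCR2 were not tested, and both subunits of the LIF receptor rose: LIFR by 0.68 ± 0.117 (edgeR adjusted p = 0.0102) and IL6ST by 0.39 ± 0.118 (adjusted p = 0.0496). LIFR was at 17.6 ± 1.03 and 15.7 ± 1.21 CPM (SD, n = 2) in wild type with control and NORAD siRNA, and at 23.6 ± 5.56 and 29.1 ± 2.38 CPM in the knockout. Under the same offset LIFR was higher by 0.43 (adjusted p = 0.00185) and IL6ST by 0.09 (0.405).

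Of 13 other NF-kB target genes tested, PLAU, PTGS2 and BIRC3 rose in the knockout and none fell by the test. PLAU, which encodes urokinase, was at 91.2 ± 2.68 and 76.8 ± 1.25 CPM (SD, n = 2) in wild type and at 129.7 ± 2.2 and 110.6 ± 7.24 CPM in the knockout. It rose by 0.53 ± 0.0686 (edgeR adjusted p = 0.00382) and kept its call in all 8 fits that left out 1 library. PTGS2, the gene of cyclooxygenase-2, rose by 1.28 ± 0.309 (adjusted p = 0.0255) from group means of 0.613 and 0.289 CPM to 1.14 and 0.938 CPM. BIRC3, an inhibitor of apoptosis, rose by 0.71 ± 0.189 (adjusted p = 0.0332). The adjusted p under the GC and length offset was 0.0784 for PTGS2 and 0.107 for BIRC3. LIFR kept its call in 7 of 8 fits that left out 1 library, TLR3 in 5, TRAF2 and BIRC3 in 3, and the other 9 list genes named here, PLAU apart, in 2 each.

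**Figure D4:**
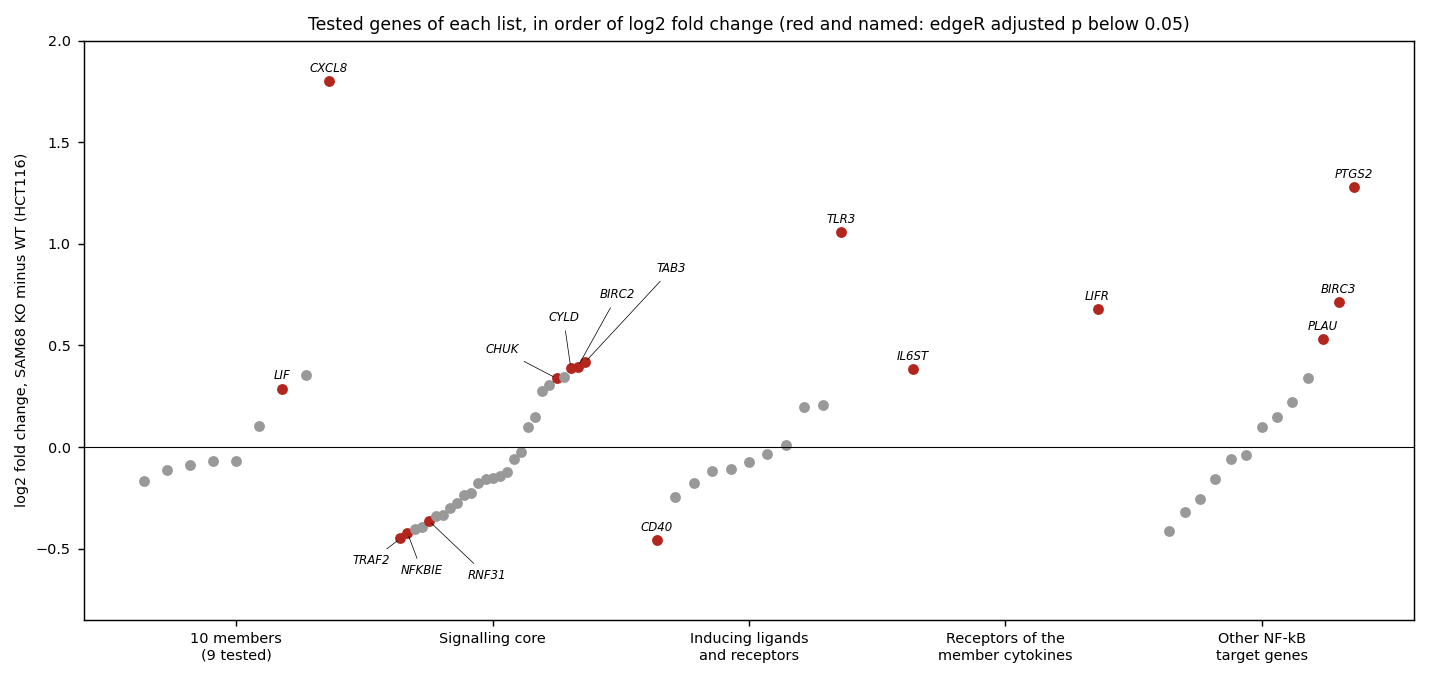
log2 difference between SAM68 knockout and wild-type HCT116 (y axis) for the tested genes of each list, in order within the list (1 point per gene). Red points with names passed an adjusted p of 0.05: CXCL8 is the highest at 1.8, and TRAF2 and CD40 are the lowest at -0.45 and -0.46.

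NORAD siRNA was compared with control siRNA in each HCT116 genotype, 2 libraries against 2. In wild-type cells none of the 9 genes passed the test, beside 0.00727% of 13764 genes called, which is NORAD itself. The other 8 of the 9, CXCL8 apart, differed by -0.14 to 0.23 on the log2 scale. CXCL8 was lower by 1.13 ± 0.605 (edgeR adjusted p = 0.999), from 4.48 and 7.68 CPM to 2.81 and 2.65 CPM. The groups did not overlap for CXCL8, RELA (-0.14) and TNFAIP3 (0.23), beside 26.7% of all tested genes. With no filter on low counts the adjusted p of CXCL8 was 0.0074 in edgeR.

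In knockout cells all 9 tested genes were lower with NORAD siRNA, with a median log2 difference of -0.26 beside 0.00 over all tested genes, and none passed the test (0.00727% of genes called, NORAD). RELA, the main activating subunit, went from 78.6 and 76.5 CPM to 54.2 and 56.2 CPM (-0.48 ± 0.105, edgeR adjusted p = 0.428). NFKB2 went from 84.7 and 84.7 CPM to 70.0 and 70.2 CPM (-0.26 ± 0.0992, adjusted p = 0.428). RELB went from 10.7 and 12.6 CPM to 9.1 and 7.44 CPM (-0.5 ± 0.16, adjusted p = 0.428). The groups did not overlap for these 3 genes, nor for TNFAIP3, TNFAIP2 and LIF, 6 of 9 in all, and 43.2% of all tested genes had no overlap.

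CXCL8 was lower by 1.11 ± 0.511 in knockout cells (edgeR adjusted p = 0.441), and its groups overlapped. Without the second knockout library with control siRNA the difference was -0.01, and with no filter on low counts the adjusted p was 0.000294. Across genes the NORAD difference in the knockout had a rank correlation of -0.7 with GC content, and in wild type one of 0.405. After the GC and length offset RELA was lower by 0.31, RELB by 0.27 and NFKB2 by 0.05 in the knockout, none past the test. Of the other target genes tested, 12 of 13, and 17 of the 27 core genes, were also lower with NORAD siRNA in the knockout, with no call, beside 49.4% of all tested genes. Both tested receptors, LIFR and IL6ST, were higher, with a median of 0.32 and no call.

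The difference between the NORAD effects of the genotypes was tested as an interaction. None of 13764 genes was called by edgeR (0%), with 7.61% of them at an unadjusted p below 0.05 and 2 genes called by DESeq2. Of the 9 genes, 8 had a more negative NORAD difference in the knockout than in wild type, beside 50.9% of all tested genes. The lowest edgeR p of the 9 was that of RELA (-0.34 ± 0.148, unadjusted p = 0.0466, adjusted p = 0.642). TNFAIP3 differed by -0.51 ± 0.241 and RELB by -0.5 ± 0.226 (adjusted p = 0.642 for both), while CXCL8 differed by 0.02 ± 0.741. The CXCL8 value turned on single libraries: it was 1.12 without replicate 2 of the knockout with control siRNA and -0.672 without replicate 1 of the knockout with NORAD siRNA. The interaction had a rank correlation of -0.73 with GC content across genes.

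**Figure D5:**
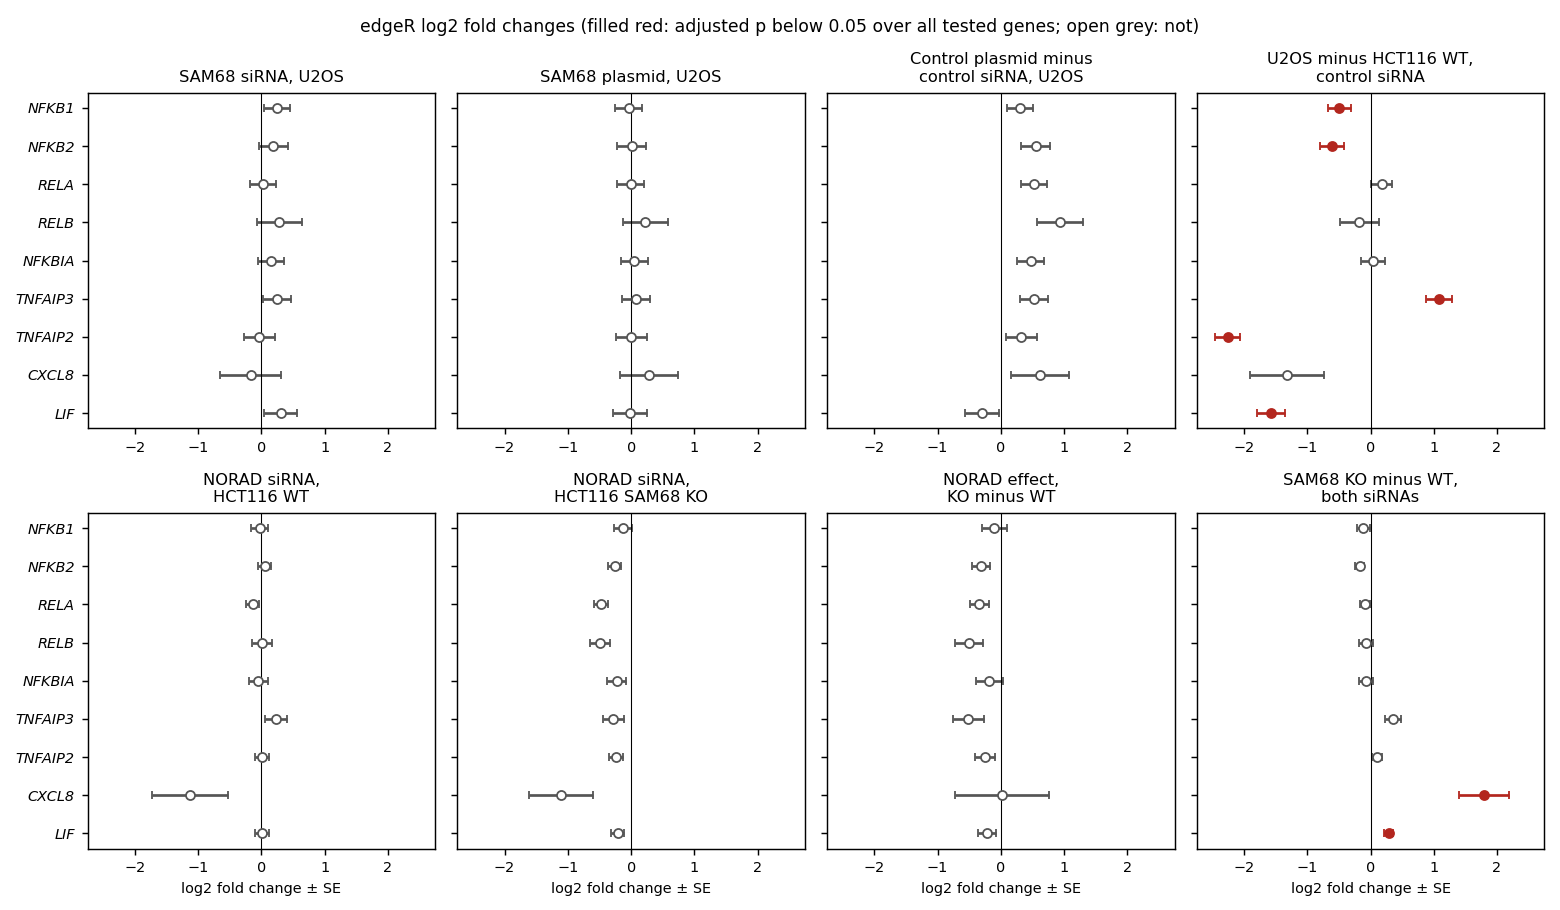
edgeR log2 fold change ± SE of the 9 tested genes in the 8 comparisons (x axis, log2; filled red, adjusted p below 0.05 over all tested genes). CXCL8 and LIF pass in the knockout comparison and 5 genes pass between the cell lines, while all 9 are below 0 with NORAD siRNA in knockout cells without passing.

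SAM68 siRNA in U2OS changed none of the 9 tested genes by the test, beside 0.00639% of 15658 genes called. The log2 differences ran from -0.17 for CXCL8 to 0.3 for LIF, with standard errors of 0.206 to 0.48. Across genes the SAM68 siRNA difference had a rank correlation of 0.392 with GC content. The 2 libraries with SAM68 siRNA lay apart: RELB was at 6.8 and 16.3 CPM, NFKB1 at 46.0 and 65.4 CPM and LIF at 31.9 and 56.2 CPM. Without replicate 1 of SAM68 siRNA CXCL8 differed by 0.37 and LIF by 0.703, and without replicate 2 they differed by -1.02 and -0.117, none past the test. TNFAIP3 was the only one of the 9 genes whose groups did not overlap, at 10.5 and 10.1 CPM with control siRNA and 10.6 and 14.5 CPM with SAM68 siRNA, as for 19.5% of genes.

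The SAM68 plasmid also changed none of the 9 genes by the test (0.00639% of genes called). Differences ran from -0.04 for NFKB1 to 0.28 for CXCL8, and the groups overlapped for all 9. RELA levels were 113.6 and 139.5 CPM in control plasmid libraries, beside 135.5 and 115.3 CPM after the SAM68 plasmid (-0.01 ± 0.206, edgeR adjusted p = 1). Standard errors ran from 0.206 to 0.453. The edgeR test did not call KHDRBS1 either, at 1.18 ± 0.244 with the plasmid and -1.94 ± 0.25 with SAM68 siRNA. With 2 libraries per group, small differences and also differences of that size in the 9 genes could thus be missed.

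The U2OS control groups differ in the agent transfected, plasmid or siRNA, and any other difference between these experiments cannot be told apart from it. With the control plasmid 8 of the 9 genes were higher, with a median log2 difference of 0.52 beside -0.11 over all tested genes, and none passed the test. Across genes the difference had a rank correlation of 0.262 with GC content. In this comparison 1.3% of genes were called, 42 higher and 162 lower. RELB was at 7.97 and 10.4 CPM with control siRNA and at 15.0 and 22.2 CPM with control plasmid (0.93 ± 0.359, edgeR adjusted p = 0.173). RELA was at 73.0 and 93.1 CPM and at 113.6 and 139.5 CPM (0.52 ± 0.206, adjusted p = 0.182). NFKB2 was higher by 0.55 ± 0.23, TNFAIP3 by 0.52 ± 0.225 and NFKBIA by 0.47 ± 0.209 (edgeR adjusted p = 0.196, 0.207 and 0.22).

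The control groups did not overlap for NFKB1, NFKB2, RELA, RELB, NFKBIA, TNFAIP3 and CXCL8, 7 of 9 genes, beside 66.4% of all tested genes. LIF was the 1 gene that was lower (-0.3 ± 0.265), with a value of 0.0399 without replicate 2 of the control siRNA. RELB passed with no filter on low counts (adjusted p = 0.0276) and TNFAIP3 with the GC and length offset (0.65, adjusted p = 0.0372). In the main fit 0.268% of all tested genes were called higher with the control plasmid. Of the listed target genes BCL2A1, an inhibitor of apoptosis of the BCL2 family, rose from 0.717 ± 0.302 to 4 ± 0.122 CPM (SD, n = 2; 2.4 ± 0.361, edgeR adjusted p = 0.0232). PTX3, a secreted pattern-recognition protein, rose from 6.19 ± 1.58 to 24.2 ± 3.12 CPM (1.89 ± 0.29, adjusted p = 0.0232). Both were among 21 target genes tested, and PTX3 lost its call without any 1 of the 4 libraries (adjusted p up to 0.253) and BCL2A1 without 3 of them.

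The cell lines were compared under control siRNA, where the line and any other difference between the experiments cannot be told apart. TNFAIP2, NFKB1, NFKB2 and LIF were lower in U2OS than in wild-type HCT116 and TNFAIP3 was higher, 5 of 9 genes beside 65.4% of all 16444 tested genes (35.6% higher and 29.8% lower in U2OS). The libraries did not overlap for TNFAIP2, LIF, TNFAIP3, NFKB1, NFKB2 and CXCL8, 6 of 9 genes, beside 85.1% of all tested genes. TNFAIP2, named for its induction by TNF, was at 11.8 and 16.6 CPM in U2OS and at 71.1 and 65.6 CPM in HCT116 (-2.26 ± 0.193, edgeR adjusted p = 1.63e-07). LIF was at 29.01 and 39.87 CPM in U2OS and at 106.4 and 98.0 CPM in HCT116 (-1.57 ± 0.219, adjusted p = 2.18e-05). TNFAIP3 was at 10.5 and 10.1 CPM in U2OS and at 4.57 and 5.16 CPM in HCT116 (1.08 ± 0.205, adjusted p = 0.000348). TNFAIP2, LIF and TNFAIP3 kept their calls in all 11 alternative fits.

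NFKB1 was lower in U2OS by 0.49 ± 0.186 (edgeR adjusted p = 0.0309) and NFKB2 by 0.61 ± 0.187 (adjusted p = 0.0104). Both calls were lost without replicate 1 of U2OS (adjusted p = 0.249 and 0.127), that of NFKB1 also without replicate 2 of U2OS or of HCT116 (0.0502 and 0.182) and with RLE scaling (0.0519), and that of NFKB2 without replicate 1 of HCT116 (0.0616). With the GC and length offset the difference of NFKB2 was 0.00, and RELA and RELB were higher in U2OS (0.67 and 1, adjusted p = 1.06e-05 and 0.00162). Without it they differed by 0.17 ± 0.166 and -0.18 ± 0.309, and NFKBIA by 0.04 ± 0.189. CXCL8 was at 1.99 and 2.8 CPM in U2OS and at 4.48 and 7.68 CPM in HCT116 (-1.32 ± 0.58, adjusted p = 0.0581). It passed with DESeq2 (adjusted p = 0.0391) and with no filter on low counts (0.0016).

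Of the listed pathway genes, 9 of 27 core genes were higher and 9 lower in U2OS, near the 65.4% called over all genes, with the deubiquitinase gene CYLD at 48.3 ± 0.646 beside 16.9 ± 2.19 CPM (SD, n = 2), NFKBIZ at 14.7 ± 0.618 beside 4.08 ± 0.429 CPM, and RBCK1, a subunit of the linear ubiquitin ligase, at 30.4 ± 1.87 beside 91.1 ± 25.3 CPM. Of 13 inducing ligands and receptors tested, 5 were higher and 3 lower, also near that share. TLR4, the receptor for lipopolysaccharide, was at 39.5 ± 5.61 CPM in U2OS and at 0 in every HCT116 group, IL1RAP at 17.2 ± 3.28 beside 2.84 ± 0.0718 CPM, and the adaptor TICAM1 at 6.45 ± 0.23 beside 27.4 ± 6.27 CPM. Both LIF receptor subunits were higher in U2OS, LIFR at 94.2 ± 3.94 beside 17.6 ± 1.03 CPM and IL6ST at 179.2 ± 20 beside 47.6 ± 4.78 CPM, opposite to LIF itself. Of 21 other targets tested, 12 were higher and 5 lower, with MMP9 at 16 ± 4.33 beside 0.326 ± 0.0159 CPM, the chemokine gene CCL2 at 8.34 ± 1.58 CPM beside 0, and PTX3 at 6.19 ± 1.58 beside 0.0555 ± 0.0104 CPM.

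With the GC and length offset each of the 11 list genes just named kept its direction and an edgeR adjusted p below 0.05, and 5 of them moved towards 0 by over 0.5 on the log2 scale. The log2 difference went from -1.58 to -0.475 for RBCK1, from -2.09 to -1.24 for TICAM1, from 1.51 to 0.874 for CYLD, from 2.42 to 1.66 for LIFR and from 1.91 to 1.25 for IL6ST.

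Within a cell line the genes varied together to different degrees. Over the 8 U2OS libraries 29 of 36 pairs of the 9 genes had a positive correlation of log2 CPM, with a median Pearson r of 0.85. NFKB2 and RELB had the highest r, 0.98, while LIF had an r of -0.22 with RELA. Over the 8 HCT116 libraries 29 of 36 pairs were also positive, with a median r of 0.35. The highest there were NFKBIA with RELB at 0.84 and NFKB2 with RELA at 0.82, and the lowest was CXCL8 with NFKB2 at -0.33. These values describe libraries of 4 groups that share depth and base composition effects.

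The genes whose level was most like the mean of the 9 genes over the 8 U2OS libraries, among 11300 searched, were AMPD2 (r = 0.99), ZNF408, SYMPK, SIPA1 and SLC38A12. In HCT116, among 10706 searched, they were ENTR1 (r = 0.94), KIAA0513, SLC25A42, SLC43A2 and AEN (r = 0.92). In GC content these 10 genes lay at percentiles 70.9 to 98.5 of the tested genes, and 5 of the 9 genes followed here lay at percentile 80.7 or above.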

How the data were processed

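Poly(A) RNA-seq was done with a stranded mRNA kit, per the labels' protocols. Per the file headers, the deposited files are RSEM gene estimates, 1 per library. The submitters' processing notes name STAR, RSEM and hg19. Versions and the strand setting of the counting are not given in the labels or headers, so overlapping antisense genes are uncertain. Expected counts (estimated, need not be whole), as deposited by the authors, were rounded and tested. TPM, deposited by the authors, served for levels between genes. The GC and length offset used the length of each row, also deposited by the authors. The deposited effective length served only for CPM per kilobase, a check of the order of levels. Gene numbers were matched to symbols with the RefSeq table of GRCh38.p14 (25321 of 27434 rows, and 604 joined rows). GC content came from GENCODE transcripts.

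Counts were filtered (filterByExpr), scaled by TMM and tested with edgeR 4.0.16 (glmQLFit, glmQLFTest; limma 3.58.1, R 4.3.3). Benjamini-Hochberg adjustment covered all tested genes: 15658 in U2OS, 13764 in HCT116 and 16444 with both, with biological coefficients of variation of 20%, 11.3% and 16.4%. The groups of a line shared the spread, and the comparison of lines used all 16 libraries. Exact permutation of 2 against 2 libraries cannot go below p = 0.333, nor 4 against 4 below 0.0286. Totals of 11349545 to 27387412 counts per library limit genes such as CXCL1. The 2 libraries of each group differed beyond counting noise (chi-square per gene 7.85 to 60.1), so none was treated as a repeat deposit of 1 library; this does not show that they are separate cultures.

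The 10 genes and all lists were chosen with earlier results of these data known. Named genes were the 10 in every comparison, KHDRBS1, NORAD, called genes of the lists (the 3 with the smallest p per list between cell lines) and the 5 most alike per line, by Pearson r with the mean z-score of the 9 tested genes. The lists' genes TAB1, TNFRSF1B and SOD2 had no row of their own. Alternatives were DESeq2 1.42.0, RLE scaling, no filter, a GC and length offset, a replicate block, each siRNA alone and each library left out.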

Additional observations from a re-analysis of the deposited data

How the results depend on the processing

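With DESeq2 the genes called numbered 7 and 4 for SAM68 siRNA and plasmid, 1022 for the control plasmid against control siRNA (204 in edgeR), 5 and 8 for NORAD siRNA in wild type and knockout and 2 for the interaction. With no filter on low counts they numbered 27, 15, 1609, 33, 61 and 30 in that order and 3772 for knockout against wild type (2424 in edgeR), and 1 of the 9 genes was called in each of control plasmid, NORAD in wild type and NORAD in knockout. With the GC and length offset they numbered 0, 0 and 1545 in U2OS and 4 for NORAD in knockout, with 1 of the 9 genes called for the control plasmid. The knockout against wild type called 43 genes and 0 of the 9 in the control siRNA libraries alone. In the NORAD siRNA libraries alone it called 2495 of 13764 genes and 1 of the 9, NFKB2.

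The labels do not say that a replicate number marks a shared culture or day, and deviations of same-numbered libraries correlated at 0.0795 to 0.317 over the 6 pairs of HCT116 groups and at -0.207 to 0.393 over the 6 pairs of U2OS groups. With the replicate number as a block, genes called numbered 0 and 0 for SAM68 siRNA and plasmid, 13 and 13 for NORAD in wild type and knockout, 5 for the interaction and 5247 for knockout against wild type, where 4 of the 9 genes were called: CXCL8, LIF, NFKB2 (adjusted p = 0.0336) and TNFAIP3 (0.0381). CXCL8 was also called between the lines (0.0477).

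Leaving out 1 library at a time gave 0 to 5 called genes for SAM68 siRNA, 0 to 4 for the plasmid, 1 to 54 for the control plasmid, 1 to 2 and 0 to 4 for NORAD in wild type and knockout, 0 to 1 for the interaction and 201 to 3144 for the knockout against wild type. Of the 9 genes it left 0 to 1 called in the knockout and 3 to 4 (of 5) between the lines.

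Of the differences of the 9 genes, 35 had an unadjusted p below 0.1, groups that did not overlap, or a call under any setting. Direction changed for 4 genes among these 35. With the GC and length offset NFKB2 was at 0.0401 in the knockout comparison and 9.42e-05 between the lines, and RELB at 0.996 between the lines. TNFAIP2 was at -0.0236 in the knockout comparison within the NORAD siRNA libraries. Leaving out 1 library put RELA between the lines at -0.00384 to 0.366 and RELB at -0.372 to 0.0283. Of the other 37 differences, 74 of 451 recomputed values changed sign and none of the 451 passed the test, among them those of CXCL8 in the interaction (-0.672 to 1.12), of NFKBIA in the knockout (to 0.0222) and between the lines (to -0.0613), of LIF for the control plasmid, and of CXCL8 and LIF with SAM68 siRNA. The planned legacy setting of edgeR is its default here and equals the results given. The setting legacy = FALSE, added after seeing the data, changed no call of the 9 genes. Low counts limit CXCL1 and, in both lines, CXCL8 (15 to 155 counts in U2OS, 50 to 122 in wild-type and 147 to 624 in knockout HCT116).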
